A study of Homo sapiens with 6 samples.

Results

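This report describes 40 pseudogenes whose RNA was gained in HELLS KO cells, out of the 14773 rows of the count table that the GENCODE release 44 annotation calls a pseudogene and 60483 gene rows in all. RNA-seq was performed on HAP1 (C631), a near-haploid line derived from chronic myelogenous leukemia, and on HELLS KO, a purchased HAP1 line that is 1 clone and carries an insertion of 1 base in exon 3 of HELLS. Each genotype gave 3 libraries of total RNA from cells in normal growth, which the study calls biological replicates, and replicate 3 of both genotypes carries a batch label. A pseudogene was taken when its lowest level among the HELLS KO libraries was more than 2 times its highest level among the HAP1 libraries and each HELLS KO library held 10 or more counts. The level here is CPM, the count relative to the total of its library. The members were thus chosen by their CPM values and counts in these 6 libraries. The pseudogenes CSAG4, GTF2H2B, ZNF702P and ZNF542P were left out by name. The difference between the genotypes chose these pseudogenes, so their own values are a description and carry no test. In bulk RNA, fewer cells with a transcript and less of it per cell cannot be told apart, and with 1 clone, loss of HELLS and other differences of that clone cannot be told apart.

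HELLS is a chromatin remodeller of the SNF2 family that is needed for DNA methylation of repeats and of silent genes, and it is one of the genes mutated in the ICF syndrome of unstable pericentromeric DNA. A pseudogene is a copy of a gene, its parent, that has lost the ability to make the parent's protein. Processed pseudogenes were copied back into the genome from spliced mRNA and usually lack the parent's promoter. Unprocessed pseudogenes arose by duplication of genomic DNA and may keep introns and promoter, while unitary pseudogenes are genes that were lost without a working copy remaining. Many copies are methylated and silent in normal tissue.

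Library totals ranged from 13641237 to 24400187 counts, and replicate 3 was the deepest library of both genotypes. A count of 0 still allows a level of 0.123 to 0.220 CPM, counting error only. HELLS was counted 1444, 1488 and 3671 times in HAP1 against 1410, 1375 and 2802 times in HELLS KO, which fits a log2 fold change of -0.24 with an adjusted p of 1.0 in edgeR's quasi-likelihood test, so transcript level was no check of a 1-base insertion. Of the 10 haematopoietic markers, PTPRC, SPI1 and MPO had at most 3 counts in every library, while TAL1 had 1178 to 2400 counts in HAP1 and 1137 to 1984 in HELLS KO, and RUNX1 285 to 817 and 381 to 938. Of the 7 testis germ cell markers, PRM1, PRM2, TNP1, ODF1, AKAP4 and DDX4 had at most 3 counts in every library. SYCP3 had 17 to 51 counts in HAP1 and 21 to 66 in HELLS KO. The testis list summed to 1.39 to 2.11 CPM in HAP1 and 1.41 to 3.19 CPM in HELLS KO.

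Of the 1096 pseudogenes with 10 or more counts in every HELLS KO library, 42 met the 2-times criterion, which is 3.83%, and 2 of these are among the names left out. The same criterion was met by 1.59% of protein-coding genes, by 3.36% of lncRNA genes and by 1.95% of all genes. Turned round, with HAP1 higher, it was met by 5 of 1017 pseudogenes, or 0.492%. These 5 were CT75, DPY19L2P2, MEIS3P2, PTP4A2P1 and ZNF137P. CT75, with 10, 13 and 11 counts in HAP1, had 0 counts in all HELLS KO libraries.

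Most gained pseudogenes were at or near 0 in HAP1 and low in HELLS KO. In 16 of the 40, no HAP1 library held a count, in 6 more the HAP1 libraries together held 1 to 3 counts, and in 18 they held more than 3. The mean level in HELLS KO had a median of 2.46 CPM over the 40 and ran from 0.806 to 53.8 CPM. Only ZNF788P and ENSG00000215146 had a mean over 10 CPM, 34 lay between 1 and 10 CPM, and 4 lay under 1 CPM. All but UBBP4 passed edgeR's filter on low counts. Of those 39, 30 were called higher (adjusted p under 0.05, log2 fold change at least 1). Among all tested pseudogenes, 2.26% were called higher and 0.141% lower, and since the same contrast chose the 40, nothing is read from that count.

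**Figure D1:**
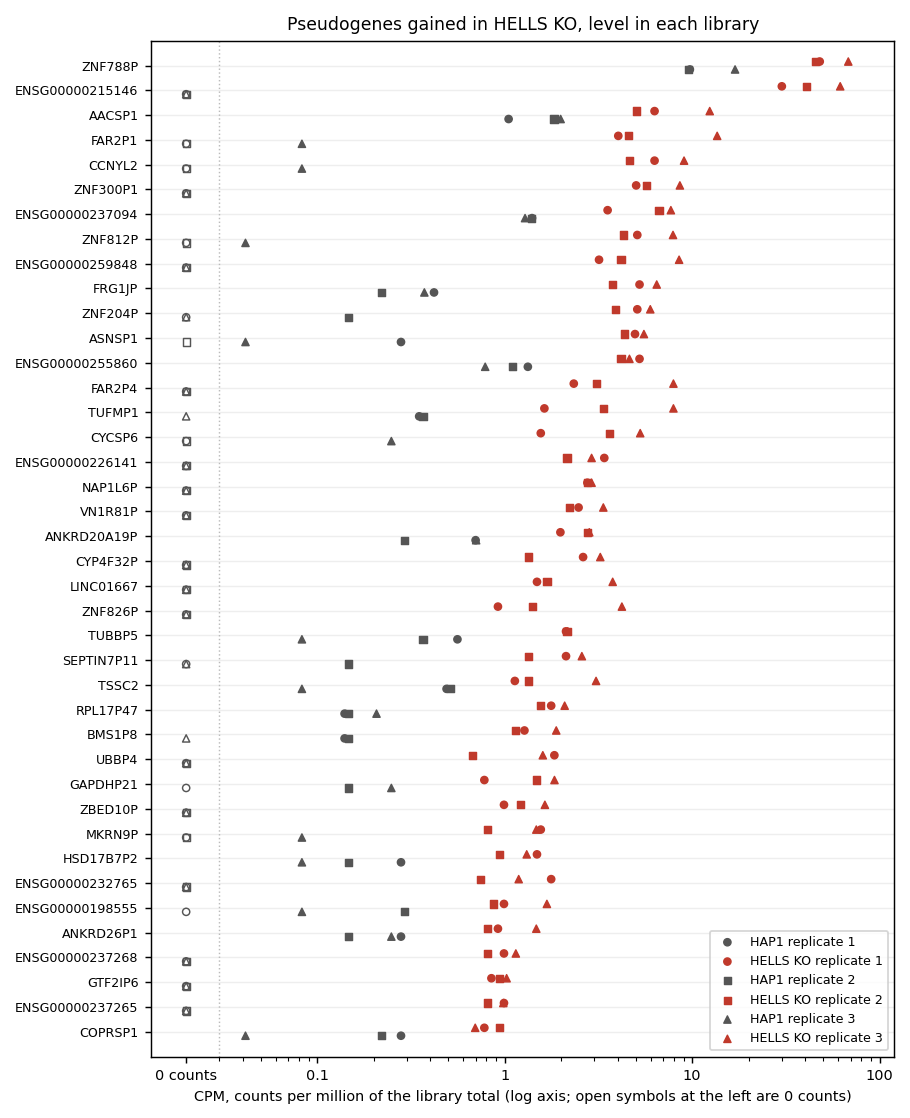
Level of each of the 40 gained pseudogenes in each library, in CPM on a log axis, with HAP1 in grey, HELLS KO in red and a symbol for each replicate; open symbols on the left are libraries with 0 counts. No red symbol lies at or below a grey symbol of the same row, as the selection requires, and the 16 rows with only open grey symbols are the pseudogenes without a count in HAP1.

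The 2 members with the most RNA were relics of KRAB zinc-finger genes, a family of DNA-binding repressors that sits in clusters, largely on chromosome 19, and that binds transposable elements. ZNF788P on chromosome 19 was the highest member and also the one with the most RNA in HAP1. It gave 139, 131 and 409 counts in HAP1, against 677, 675 and 1662 for HELLS KO, or 12.1 ± 4.2 against 53.8 ± 12.4 CPM (SD, n = 3). The lowest HELLS KO level was 45.4 CPM and the highest HAP1 level 17.0 CPM. The selection required a gap between them, and the ratio of the means was 4.45. ENSG00000215146, a relic beside the centromere of chromosome 10, is most similar to ZNF43. Its counts were 0 in all HAP1 libraries and 425, 607 and 1505 in HELLS KO, 44.2 ± 16.1 CPM (SD, n = 3). Set against 3 counts in the shallowest HAP1 library, this is at least 201-fold higher.

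ZNF300P1 lies on chromosome 5 from 150930763 to 150946289 on the - strand, 25780 bases from its parent ZNF300, a KRAB zinc-finger gene on the same strand. ZNF300P1 had no count in HAP1 and 71, 85 and 210 counts in HELLS KO, at least 29.3-fold higher. ZNF812P on chromosome 19 was counted 0, 0 and 1 times in HAP1 against 72, 64 and 193 times in HELLS KO. ZNF204P on chromosome 6 gave 0, 2 and 0 counts in HAP1, against 72, 58 and 146 for HELLS KO. The ratio of the pooled levels was 321 (95% counting interval 57.2 to 12711) for ZNF812P and 135 (36.9 to 1117) for ZNF204P, so both ratios are known only roughly. ZNF826P on chromosome 19 is related to ZNF626. It had no count in HAP1 and 13, 21 and 103 counts in HELLS KO, so that its level in replicate 3, 4.22 CPM, stood above the 0.92 and 1.41 CPM of replicates 1 and 2.

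ZNF300P1 and ZNF300 are shown here because pseudogene and parent were both gained. The GRCh38 sequence before the annotated start of ZNF300 (chr5:150904984-150905199, - strand) was aligned to the sequence before ZNF300P1 (chr5:150946558-150946769, - strand). Of 217 aligned columns, 172 were identical, or 79.3%. Capitals mark CG dinucleotides, the sites of DNA methylation, of which each sequence holds 9 and of which 5 stand at the same place in both.
ZNF300P1: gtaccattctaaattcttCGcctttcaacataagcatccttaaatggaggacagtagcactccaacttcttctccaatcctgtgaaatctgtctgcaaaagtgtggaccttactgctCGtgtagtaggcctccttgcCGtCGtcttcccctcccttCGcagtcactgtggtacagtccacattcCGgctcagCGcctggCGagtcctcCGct
ZNF300: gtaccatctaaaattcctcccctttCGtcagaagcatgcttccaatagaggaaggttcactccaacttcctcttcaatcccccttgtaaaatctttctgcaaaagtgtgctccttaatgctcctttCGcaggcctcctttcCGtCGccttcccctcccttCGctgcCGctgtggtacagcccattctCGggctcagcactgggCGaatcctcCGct
The whole alignment covered 474 columns at 82.3% identity and ran past the annotated start of ZNF300 to base 257. DNA methylation was not measured in these libraries. By ELISA, the study reported no effect of HELLS loss on global CpG methylation in HAP1 cells, a measure that does not give single sites. Whether methylation of these sequences changed was not tested.

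Another group of members are duplicated pieces of enzyme and housekeeping genes in the DNA beside centromeres. CCNYL2, a relic of the cyclin-like gene CCNYL1, lies on chromosome 10, 56716 bases from ENSG00000215146. It was counted 0, 0 and 2 times in HAP1 against 89, 69 and 221 times in HELLS KO, a ratio of 185 (95% counting interval 50.8 to 1532). ASNSP1 on chromosome 8 and ENSG00000259848 on chromosome 2 both derive from ASNS, asparagine synthetase. ASNSP1 gave 4, 0 and 1 counts in HAP1, against 70, 65 and 135 for HELLS KO. ENSG00000259848 had no count in HAP1 and 45, 62 and 208 in HELLS KO, at least 24.1-fold higher. Both ASNS copies were thus near 0 in every HAP1 library, while the selection itself requires counts in every HELLS KO library.

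FAR2P1 and FAR2P4 are copies of FAR2, which reduces fatty acyl-CoA to fatty alcohols, and lie on chromosome 2, at 35.4 and 36.7 Mb from the centromere span described further on. FAR2P1 was counted 0, 0 and 2 times in HAP1 against 57, 68 and 332 times in HELLS KO, a ratio of 223 (95% counting interval 61.3 to 1846). FAR2P4 had no count in HAP1 and 33, 46 and 194 in HELLS KO, at least 20.3-fold higher. Replicate 3 was the highest HELLS KO library of both, at 13.6 CPM for FAR2P1 and 7.95 CPM for FAR2P4. They share sequence, 14.9% of the stretches of 31 bases of FAR2P1 and 33.1% of those of FAR2P4 being found in the other, so their values cannot be taken as independent.

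AACSP1 on chromosome 5 is a relic of AACS, acetoacetyl-CoA synthetase of ketone body use, and was already transcribed in HAP1. It gave 15, 25 and 48 counts in HAP1, against 89, 75 and 303 for HELLS KO, or 1.62 ± 0.50 against 7.92 ± 3.94 CPM (SD, n = 3). FRG1JP on chromosome 9 is a copy of FRG1, a gene of RNA processing, and was counted 6, 3 and 9 times in HAP1 against 74, 56 and 158 times in HELLS KO. ENSG00000255860 on chromosome 11, between the folate receptor genes FOLR3 and FOLR1, gave 19, 15 and 19 counts in HAP1, against 74, 62 and 113 for HELLS KO. In these 3 the ratio of the mean levels was 4.88, 15.3 and 4.37 in that order. ENSG00000237094 on chromosome 1 is a fragment of the septin gene SEPTIN14, counted 20, 19 and 31 times in HAP1 against 50, 99 and 188 times in HELLS KO. Only 1.68% of its stretches of 31 bases occur at a single place in the genome. The authors' filter on mapping quality, described further on, removes reads that match several places. Whether its remaining counts come from other copies was not tested.

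Copies of mRNA, the processed pseudogenes, made up 8 of the 40. TUFMP1 on chromosome 17 is a copy of TUFM, the mitochondrial elongation factor Tu, and was counted 5, 5 and 0 times in HAP1 against 23, 50 and 194 times in HELLS KO. CYCSP6 on chromosome 2, a copy of the cytochrome c gene CYCS, gave 0, 0 and 6 counts in HAP1, against 22, 54 and 129 for HELLS KO. Both were uneven within HELLS KO, between 1.63 and 7.95 CPM for TUFMP1 and between 1.56 and 5.29 CPM for CYCSP6. NAP1L6P on the X chromosome is a copy of a nucleosome assembly gene that had no count in HAP1 and 39, 41 and 71 in HELLS KO, 2.81 ± 0.086 CPM (SD, n = 3), which makes it one of the most even members. MKRN9P, RPL17P47, GAPDHP21 and COPRSP1 are copies of MKRN1 (a ubiquitin ligase), RPL17 (a ribosomal protein), GAPDH (a glycolytic enzyme) and COPRS (a partner of an arginine methyltransferase). Their mean HELLS KO levels were between 0.806 CPM for COPRSP1 and 1.80 CPM for RPL17P47. LINC01667 on chromosome 21 had no count in HAP1 and 21, 25 and 92 in HELLS KO, and it is annotated as a transcribed processed pseudogene although its symbol is that of a non-coding RNA.

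The remaining members without a count in HAP1 were all low in HELLS KO. On the X chromosome these were ENSG00000226141 with 48, 32 and 71 counts in HELLS KO, ENSG00000232765 with 25, 11 and 29, and ENSG00000237265 with 14, 12 and 24. ENSG00000226141 matches part of the creatine transporter gene SLC6A8, and ENSG00000232765 matches PAGE2B, a cancer-testis gene. VN1R81P on chromosome 19, a relic of a vomeronasal receptor gene, had 35, 33 and 82 counts. CYP4F32P on chromosome 2, a relic of a cytochrome P450 gene, had 37, 20 and 79. VN1R81P lies inside the zinc-finger gene ZNF714, described with the neighbours further on. UBBP4 on chromosome 17, a copy of the polyubiquitin gene UBB, had 26, 10 and 39. ZBED10P on chromosome 7, the unitary pseudogene among the 40, had 14, 18 and 40. ENSG00000237268 on chromosome 7 and GTF2IP6 on chromosome 17, relics of CCDC144A and of the transcription factor gene GTF2I, had 14, 12 and 28 counts and 12, 14 and 25 counts.

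The other members, each with some counts in HAP1, were ANKRD20A19P, TUBBP5, SEPTIN7P11, TSSC2, BMS1P8, HSD17B7P2, ENSG00000198555 and ANKRD26P1. SEPTIN7P11 is a copy of a septin gene, BMS1P8 of a ribosome assembly gene, and ANKRD20A19P and ANKRD26P1 of ankyrin repeat genes. Their mean levels in HELLS KO ran from 1.07 CPM for ANKRD26P1 to 2.52 CPM for ANKRD20A19P. HSD17B7P2, a copy of the steroid and cholesterol enzyme gene HSD17B7, was counted 4, 2 and 2 times in HAP1 against 21, 14 and 32 times in HELLS KO. TUBBP5, a copy of the beta-tubulin gene TUBB, gave 8, 5 and 2 counts in HAP1, against 30, 32 and 53 for HELLS KO, which is 2.13 to 2.17 CPM in every HELLS KO library.

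The members nearest the criterion were TSSC2, with a lowest HELLS KO level 2.21 times its highest HAP1 level, COPRSP1 at 2.49 times and ENSG00000237094 at 2.53 times. TSSC2, a relic of the mannosyltransferase gene ALG1, was counted 7, 7 and 2 times in HAP1 against 16, 20 and 75 times in HELLS KO. COPRSP1 gave 4, 3 and 1 counts in HAP1, against 11, 14 and 17 for HELLS KO. Just outside lay POTEKP at 1.77 times, with 4, 6 and 0 against 11, 15 and 52 counts. CHORDC1P4, at 1.69 times, was counted 6, 4 and 9 times in HAP1 against 10, 12 and 19 times in HELLS KO. ENSG00000278931, at 1.59 times, gave 14, 19 and 23 counts in HAP1, against 45, 33 and 82 for HELLS KO. The pseudogenes just outside differed from those just inside by little.

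The members were often highest in HELLS KO replicate 3. The ratio of its level to the mean of HELLS KO replicates 1 and 2 had a median of 1.49 over the 40, was over 1.5 in 19 and under 1 in 3. Among 1053 other pseudogenes with 10 or more counts in every HELLS KO library, called the comparison pseudogenes from here on, the median of that ratio was 0.766. The ratio was 0.769 for the same pseudogenes in HAP1 and 1.01 over all tested genes in HELLS KO. Replicate 3 differs in batch label and in depth, and their part in these ratios was not tested. With replicates 1 and 2 alone, 51 pseudogenes met the criterion.

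Next, each pseudogene was set beside its parent, which the selection did not use. The parent was the coding gene named by the pseudogene's symbol in 17 cases, and in 23 cases the coding gene with the best blastn match to its transcripts. The match had a median identity of 89.0% over the 40. In ZBED10P, NAP1L6P, LINC01667 and ENSG00000198555 the matched part was under 50% of the transcript. The parents of CYP4F32P (ANKRD18A) and VN1R81P (ZNF431) belong to another family than the symbol names, so the parents of these 6 members are uncertain. ZBED10P is unitary, so its best match, ARPC5, is no parent in the sense given above. The matches of all 6 are kept in the counts of parents and pairs that follow. The stretches below were chosen to show how members differ from parents that did not pass the test described below. Each is 60 bases of GRCh38 from the middle of the match, with its parent's coding sequence under it and differing bases in capitals.
CCNYL2 (chr10:42420824-42420883, - strand): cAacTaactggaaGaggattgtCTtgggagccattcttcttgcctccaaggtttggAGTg
CCNYL1 (chr2:207747093-207747152, + strand): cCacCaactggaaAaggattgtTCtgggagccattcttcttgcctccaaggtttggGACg
CYCSP6 (chr2:78412918-78412977, - strand): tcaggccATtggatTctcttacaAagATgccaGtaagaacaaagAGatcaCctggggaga
CYCS (chr7:25123834-25123994, - strand, across an intron): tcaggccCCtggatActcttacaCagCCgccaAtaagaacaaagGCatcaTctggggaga
TUFMP1 (chr17:27083312-27083371, - strand): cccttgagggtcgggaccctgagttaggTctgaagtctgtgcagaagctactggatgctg
TUFM (chr16:28844500-28844705, - strand, across an intron): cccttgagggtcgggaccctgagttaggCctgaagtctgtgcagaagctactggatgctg
HSD17B7P2 (chr10:38365467-38365526, + strand): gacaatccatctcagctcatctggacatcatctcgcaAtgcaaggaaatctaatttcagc
HSD17B7 (chr1:162799776-162799835, + strand): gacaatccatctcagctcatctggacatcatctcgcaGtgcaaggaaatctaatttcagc
CCNYL2 differed from its parent at 8 of the 60 bases and CYCSP6 at 10, while TUFMP1 and HSD17B7P2 differed at 1. The CYCS and TUFM stretches cross an intron that the processed copies lack.

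Of the 36 parents, 32 were tested, and 5 were called higher in HELLS KO and 0 lower, in the quasi-likelihood test of edgeR, adjusted after Benjamini and Hochberg over 17925 genes. Over all tested genes, 1.5% were called higher and 0.720% lower. The 5 were ZNF300, ZNF43, ZNF433, ZNF626 and PAGE2B. Zinc-finger genes were thus 4 of the 5, and 4 of the 7 tested parents with a ZNF symbol were called, beside 9.07% of all tested coding genes with such a symbol. Among the other 25 tested parents, 1 was called, beside 1.08% of coding genes without a ZNF symbol.

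ZNF300, the parent of ZNF300P1, was counted 10, 4 and 6 times in HAP1 against 645, 835 and 1781 times in HELLS KO, which fits a log2 fold change of 7.19 (standard error 0.40) with an adjusted p of 0.000243 from edgeR. PAGE2B, the parent of ENSG00000232765, gave 2, 1 and 2 counts in HAP1, against 71, 43 and 91 for HELLS KO, which fits a log2 fold change of 5.22 (0.45) with an adjusted p of 0.00182 from edgeR. Both calls held whichever single library was left out. ZNF43, the parent of ENSG00000215146, was counted 0, 6 and 34 times in HAP1 against 178, 272 and 683 times in HELLS KO, which fits a log2 fold change of 4.83 (0.81) with an adjusted p of 0.0251 from edgeR. ZNF433, the parent of ZNF788P, gave 2, 0 and 9 counts in HAP1, against 78, 58 and 167 for HELLS KO, which fits a log2 fold change of 4.73 (0.67) with an adjusted p of 0.0130 from edgeR. ZNF626, the parent of ZNF826P, was counted 0, 0 and 4 times in HAP1 against 38, 21 and 110 times in HELLS KO, which fits a log2 fold change of 5.18 (0.88) with an adjusted p of 0.0265 from edgeR. All 5 parents were low in HAP1, and in each the HELLS KO libraries lay above every HAP1 library.

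The calls of ZNF43, ZNF433 and ZNF626 were lost without some single libraries. The adjusted p of ZNF43 from edgeR rose to between 0.0532 and 0.124 without HAP1 replicate 2 or any HELLS KO library. That of ZNF433 rose to between 0.0585 and 0.0626 without HAP1 replicate 1 or HELLS KO replicate 1 or 2, and that of ZNF626 to between 0.0682 and 0.0968 without any library other than HAP1 replicate 3. The number of parents called fell from 5 to 2 when HELLS KO replicate 1 or 2 was left out, and to 3 when either of the first 2 HAP1 libraries or the third HELLS KO library was. With replicates 1 and 2 alone, which carry no batch label, all 5 were called. The model behind these values had no term for replicate. With replicate number as a block and all libraries kept, the adjusted p from edgeR was 0.000245 for ZNF43, 0.000629 for ZNF433 and 0.00129 for ZNF626. Pairing within replicates 1 and 2 is uncertain, as described at the end.

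The other 27 tested parents did not pass the test. Their log2 fold changes lay between -0.16 for AACS and 0.34 for ZNF431, and 0 of the 27 had an unadjusted p under 0.05 in edgeR. The median over the 32 tested parents was 0.05, beside 0.0064 over all tested genes. Levels per length are given as FPKM, fragments relative to gene length and a size factor of the library that is described at the end. For the pseudogenes this is the length of the counted model. In 22 of the 40 members that model was longer than the annotated pseudogene, as described further on. CYCS had 27.3 ± 1.35 FPKM for HAP1 libraries and 29.2 ± 2.69 for HELLS KO (SD, n = 3), where CYCSP6 went from 0.270 ± 0.468 to 11.5 ± 6.23. ASNS had 32.7 ± 3.85 FPKM for HAP1 libraries and 31.7 ± 2.73 for HELLS KO, where ASNSP1 went from 0.059 ± 0.083 to 2.7 ± 0.298. FRG1 had 27.9 ± 1.52 FPKM for HAP1 libraries and 28.4 ± 3.32 for HELLS KO, where FRG1JP went from 0.358 ± 0.113 to 5.46 ± 1.39. In these 3 parents the genotype means differed by less than the larger SD.

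AACS had 7.12 ± 0.707 FPKM for HAP1 libraries and 6.33 ± 0.343 for HELLS KO, beside AACSP1 at 0.474 ± 0.144 and 2.31 ± 1.16. CCNYL1 had 11.2 ± 1.93 FPKM for HAP1 libraries and 11.2 ± 2 for HELLS KO, beside CCNYL2 at 0.007 ± 0.012 and 1.71 ± 0.570. FAR2 had 9.76 ± 1.64 FPKM for HAP1 libraries and 10.7 ± 1.25 for HELLS KO, beside FAR2P4 at 0 and 1.12 ± 0.772. All 3 parents were the more abundant RNA in HELLS KO too. TUFM had 66.4 ± 15.2 FPKM for HAP1 libraries and 64.1 ± 13.6 for HELLS KO, beside TUFMP1 at 0.175 ± 0.152 and 3.18 ± 2.41. The zinc-finger gene ZNF562 had 6.80 ± 1.38 FPKM for HAP1 libraries and 7.57 ± 0.941 for HELLS KO, beside ZNF812P at 0.006 ± 0.011 and 2.55 ± 0.839. ZNF420 had 5.20 ± 1.53 FPKM for HAP1 libraries and 6.19 ± 1.40 for HELLS KO, beside ZNF204P at 0.020 ± 0.035 and 2.05 ± 0.411. In all of these, the HELLS KO level of the copy was lower than that of the parent.

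Both genes of a pair had an FPKM in 38 cases. In 6 of these, the pseudogene was above its parent in HELLS KO, and over the 38 the pseudogene had a median of 16.3% of the parent's FPKM, with 15 under 10%. These are levels of the counted models, which are not always the annotated pseudogene alone. The 6 were ENSG00000255860, ENSG00000237094, ANKRD20A19P, ZNF788P, ENSG00000215146 and VN1R81P. ZNF788P had 7.14 ± 1.67 FPKM in HELLS KO beside 1.73 ± 0.459 for ZNF433 (SD, n = 3), and ENSG00000215146 had 6.23 ± 2.32 beside 2.25 ± 0.911 for ZNF43. ZNF300P1, in contrast, had 2.04 ± 0.616 FPKM beside 13.1 ± 3.25 for ZNF300, so relic and parent were both gained but not to one ratio. FOLR3 and SEPTIN14, the parents of ENSG00000255860 and ENSG00000237094, were too low to be tested, with at most 5 counts and at most 18 counts in a library. UBB had 0 to 5 counts in each library. Since every cell makes ubiquitin, its row does not give the level of the parent of UBBP4. The authors kept reads of a mapping quality of at least 20, which removes reads that match several places, and the part of this in the UBB row was not tested.

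Genes beside the members were examined next. Neighbours were coding genes that overlap a member or are the nearest on either side within 100 kb. There were 44, of which 24 were tested, 7 were called higher and 0 lower by edgeR, or 29.2% beside 1.5% of all genes. The 7 were LRP1B, ZNF300, LRRC61, ZNF844, ZNF714, ZNF430 and CTAG2. Of the 10 tested neighbours with a ZNF symbol 4 were called, beside 9.07% of all tested coding genes with such a symbol. Of the 14 others 3 were called, beside 1.08% of coding genes without one. LRP1B, LRRC61 and ZNF714 overlap a member on the same strand, so they are not separate from it. ZNF300 is counted here and among the parents.

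CTAG2, a cancer-testis antigen gene on the X chromosome, lies 967 bases from ENSG00000226141, on the opposite strand. It gave 0, 0 and 2 counts in HAP1, against 967, 825 and 1155 for HELLS KO, a ratio of 1437 (95% counting interval 397 to 11872). ZNF714 overlaps VN1R81P on the same strand and was counted 0, 1 and 5 times in HAP1 against 919, 1088 and 2481 times in HELLS KO, which fits a log2 fold change of 9.38 (standard error 0.48) with an adjusted p of 0.000194 from edgeR. ZNF430, 63767 bases from VN1R81P, gave 2, 3 and 6 counts in HAP1, against 287, 294 and 772 for HELLS KO. ZNF431, on the other side of VN1R81P, was already on in HAP1 with 497, 465 and 1623 counts and had 675, 742 and 1819 in HELLS KO, which fits a log2 fold change of 0.34 (0.31) that did not pass the test. VN1R81P thus lay inside 1 gained gene and between another that was gained and 1 that was not called.

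COPRSP1 lies within LRP1B, a large gene of the LDL receptor family, on the same strand. LRP1B was counted 169, 136 and 410 times in HAP1 against 613, 886 and 1980 times in HELLS KO, which fits a log2 fold change of 2.25 (standard error 0.30) with an adjusted p of 0.0111 from edgeR. The ratio of the mean levels of COPRSP1 was 4.47. ZBED10P overlaps LRRC61 on the same strand, and LRRC61 gave 0, 0 and 2 counts in HAP1, against 22, 27 and 45 for HELLS KO, a ratio of 45.8 (95% counting interval 12.3 to 384). For VN1R81P, COPRSP1 and ZBED10P, RNA of the overlapping gene and RNA of the pseudogene cannot be told apart by strand. The call of LRP1B was lost without HAP1 replicate 1 or HELLS KO replicate 2, and that of LRRC61 without HELLS KO replicate 2, with an adjusted p from edgeR of up to 0.0668 and 0.0721. With the replicate block and all libraries kept, the adjusted p from edgeR was 0.000123 for LRP1B and 0.0030 for LRRC61.

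Not every overlap moved. FAR2P4 overlaps PLEKHB2 on the same strand, and PLEKHB2 was counted 2373, 2310 and 4278 times in HAP1 against 2137, 2292 and 4052 times in HELLS KO, which fits a log2 fold change of -0.12 (standard error 0.10) that did not pass the test. In all, 8 members overlap another gene of the table on the same strand and 8 overlap one on the opposite strand. The strand setting of the counting was not given in the sources used here.

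Counting genes of any type, 10 of the 40 members, or 25%, had a gene outside the 40 called higher within 100 kb, against 19 of the 1053 comparison pseudogenes, or 1.80%. There were 13 such genes, 7 of them with a zinc-finger symbol. Around ZNF788P on chromosome 19, ZNF844, ZNF878, ZNF433 and the antisense RNA ZNF433-AS1 were called higher, and the member RPL17P47 lies 28758 bases away. The call of ZNF433-AS1 was lost whichever library was left out, with an adjusted p from edgeR of 0.0516 to 0.163. That of ZNF878 was lost without HAP1 replicate 1 or any HELLS KO library, at up to 0.119. ZNF844 gave 2, 0 and 0 counts in HAP1, against 65, 62 and 227 for HELLS KO, a ratio of 173 (95% counting interval 47.4 to 1431). Beside CCNYL2, the lncRNA LINC00839 had no count in HAP1 and 647, 550 and 1052 in HELLS KO, at least 191-fold higher. CCNYL2, ENSG00000215146 and LINC00839 are thus adjacent transcripts of chromosome 10 that were all near 0 in HAP1. TUFMP1 and GTF2IP6 lie 34756 bases apart on chromosome 17. These shares are descriptions, since members that lie close together share their neighbours.

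The 40 were mostly of unprocessed types. Unprocessed types made up 31 of the 40, or 77.5%, of which 25 are annotated as transcribed, against 304 of the 1053 comparison pseudogenes, or 28.9%. Of the other 9 members, 8 were processed and 1 was unitary. The members lay on 16 chromosomes, with 6 on chromosome 2, 5 on chromosome 19, and 4 each on chromosomes 10 and X.

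Many members lay close to a centromere. As a marker of the centromere, the span of each chromosome was taken that is dense in matches to the CENP-B box, searched on both strands in bins of 100 kb with 20 or more matches. Within 2 Mb of such a span lay 12 of the 40 members, or 30%, and 42 of 1051 comparison pseudogenes, or 4%. Within 10 Mb the shares were 50% and 19.0%. The median distance was 9.79 Mb for the members and 30.8 Mb for the comparison pseudogenes. Among unprocessed types alone, 10 of 31 members, or 32.3%, lay within 2 Mb, against 18 of 304, or 5.92%. The distances were chosen with the values in view, so these shares are descriptions.

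The 12 were CYP4F32P and ENSG00000259848 on chromosome 2, ENSG00000237268 on chromosome 7, ASNSP1 on chromosome 8, HSD17B7P2, ENSG00000215146 and CCNYL2 on chromosome 10, SEPTIN7P11 on chromosome 11, UBBP4, GTF2IP6 and TUFMP1 on chromosome 17, and LINC01667 on chromosome 21. CYP4F32P was the nearest, at 0.159 Mb. The parent of ENSG00000215146, ZNF43, was the only called parent of these 12.

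Around the annotated 5′ end, from 250 bases before to 50 bases after, the members held a median of 4.5 CG dinucleotides and the comparison pseudogenes 7. In 22 members the counted model was longer than the annotated pseudogene, so this end may not be the start of the counted transcript. The sets also differ in their share of unprocessed types, and the CG counts were not split by type. Members covered the range from ZNF204P with 0 to ENSG00000198555 with 38. Of the members' stretches of 31 bases, a median of 77.9% occur at a single place in the genome. Here the exons of same-strand lncRNA genes that are no row of the count table were added to the pseudogene. In the annotated exons of the pseudogenes alone, the median was 71.0%. In 10 members the share was under 50%, among them ENSG00000198555 with 8.50%, FAR2P4 with 23.2%, HSD17B7P2 with 31.5% and FRG1JP with 44.2%. The filter on mapping quality may have removed reads of these members. Whether their counts include reads of other copies was not tested. With their parents the members shared a median of 6.34% of the stretches in the annotated pseudogene exons alone, and 11 shared none. HSD17B7P2 shared 69.5%.

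The gene models that were counted often differed from the pseudogenes of the annotation used here. The gene length that the authors used was recovered from the deposited values, and in 27 members it differed from the exons of release 44, being longer in 22 and shorter in 5. The shorter ones were ASNSP1, SEPTIN7P11, LINC01667, ZBED10P and ENSG00000237265. In 21 of the 22 longer ones, release 44 has a lncRNA on the same strand that is no row of the count table. For FAR2P1, for example, the counted model had 8075 bases and the annotated pseudogene 709. For these 21 members, reads of the pseudogene proper and of the surrounding transcript cannot be told apart.

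A first prepared list held genes that add or remove DNA methylation, partners of HELLS and silencers of chromatin. A second held genes of nonsense-mediated decay, which removes transcripts with early stop codons such as those of pseudogenes. The first list has 16 genes, DNMT1, UHRF1, CDCA7, TET1, TRIM28 and SETDB1 among them. All 16 were tested in edgeR, 0 were called and 0 had an unadjusted p under 0.05, with log2 fold changes of -0.16 to 0.24. All 15 genes of the second list were tested in edgeR, 0 were called and 0 had an unadjusted p under 0.05, with log2 fold changes of -0.11 to 0.16. Of the haematopoietic markers, KIT was called lower, counted 319, 270 and 933 times in HAP1 against 32, 40 and 138 times in HELLS KO, which fits a log2 fold change of -2.90 (standard error 0.43) with an adjusted p of 0.0153 from edgeR, which rose to 0.0693 without HELLS KO replicate 1 and 0.111 without HELLS KO replicate 2. With the replicate block and all libraries kept, the adjusted p of KIT from edgeR was 4.56e-05. Of the 4 fibroblast markers, LUM and DCN had at most 3 counts in every library and COL1A2 at most 8. The collagen gene COL1A1 was abundant, counted 1103, 1048 and 854 times in HAP1 against 600, 713 and 868 times in HELLS KO. It was the 1 marker tested, and its log2 fold change of -0.58 (standard error 0.30) did not pass the test. The list, mostly COL1A1, summed to 35.7 to 77.3 CPM in HAP1 and 35.9 to 48.1 CPM in HELLS KO. The 10 haematopoietic markers summed to 129 to 173 CPM in HAP1 and 111 to 127 CPM in HELLS KO.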

How the data were processed

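Total RNA of HAP1 (C631) and HELLS KO cells, 3 libraries each, was sequenced from directional libraries as paired reads of 100 bases. The authors aligned the reads to GRCh38 with STAR 2.7.3a, removed duplicates, kept a mapping quality of at least 20 and counted reads per gene with featureCounts 2.0.6, which gave the deposited counts. The annotation and strand setting were not given in the sources used here. The deposited FPKM values were computed by the authors from these counts, per gene length and a size factor of each library. That factor, recovered here, is the median ratio of a library's counts to the geometric mean over the libraries.

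Members, parents, lists and tests were chosen with earlier results of these data known. Types, positions and sequences came from GENCODE release 44 and GRCh38. The difference between genotypes was fitted on all genes in edgeR 4.0.16 (R 4.3.3; filterByExpr, TMM, Benjamini-Hochberg). DESeq2 1.42.0, limma 3.58.1 on log2 FPKM, other filters, a replicate block and left-out libraries were alternatives, and the edgeR script was tested on simulated data. Parents were named by symbol or by the best blastn match of at least 100 bases. Per-library values were given for the 15 members with the highest mean HELLS KO level, those without a HAP1 count and the 3 members on either side of the criterion. Parents and neighbours were named where called, and other genes for illustration after their values were seen. Deviations from the genotype mean of libraries with the same number correlated at 0.416, 0.197 and 0.778, all over the 0.1 set for pairing. HAP1 replicate 2 with HELLS KO replicate 1 correlated at 0.591 and HAP1 replicate 1 with HELLS KO replicate 2 at 0.330, so only replicate 3 stood apart and pairing within replicates 1 and 2 is uncertain. Intervals on ratios cover counting error only. The level of 1 haematopoietic marker is not reported here.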

Additional observations from a re-analysis of the deposited data

How the results depend on the processing

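The numbers of genes called moved with the method, while 0 of 555 recomputed values of parents and neighbours reversed and 21 lost their call. The genes called higher in HELLS KO numbered 269 and the genes called lower in HELLS KO 129, while DESeq2 called 426 and 244, and no filter on low counts gave 415 and 200. A minimum of 10 counts in every library, which removes genes at 0 in HAP1, gave 29 and 48. limma on log2(FPKM + 1) gave 146 and 52, or 150 and 58 at a mean of at least 0.5 FPKM. With the replicate block, 363 were called higher and 267 lower. Replicates 1 and 2 alone, an alternative added after seeing the data, gave 225 and 219. Leaving out 1 library gave 112 (without HELLS KO replicate 2) to 273 higher and 40 (without HELLS KO replicate 2) to 176 lower. Parents called higher numbered 0 at the minimum of 10 counts and 2 to 5 with 1 library left out. Neighbours called higher numbered 1 at that minimum, 4 in limma on log2(FPKM + 1) with or without the minimum mean, and 5 to 7 with 1 library left out. The block ended no call of a parent or neighbour. No parent and no neighbour was called lower under any alternative run. The pseudogenes meeting the rule for members numbered 18 at 30 counts per HELLS KO library, 238 on replicate 3 alone, and 43 to 49 with 1 library left out. With 3 libraries per genotype and most members under 10 CPM, ratios against HAP1 are known only within wide counting intervals.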
